A study of Mus musculus with 23 samples.

Results

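Resident macrophage genes, including those that mark the macrophages of erythroblastic islands, were followed in RNA-Seq of marrow-depleted bone from female mice with and without type 1 diabetes (T1D). The genes were Adgre1, C1qa, C1qb, C1qc, Mrc1, Cd163, Vcam1, Spic, Siglec1, and Mertk. They were selected by name, and all 10 of 10 were found by symbol among 17644 genes with a TPM value and by gene identifier in the count table. Each of the 10 passed the filter of at least 10 counts in at least 5 mice, as did 14364 genes in all.

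The mice were C57BL6/N females aged 11 weeks, 1 mouse per library and 23 mice in all. WT Control (n = 5) and KO Control (n = 6) mice had received saline. WT T1D (n = 6) and KO T1D (n = 6) mice had received streptozotocin, a toxin of the insulin-producing β cell, at 100 mg/kg from 8 weeks of age and had been diabetic for 3 weeks. KO mice were labelled as carrying a global knockout of Sarm1, an NAD-cleaving enzyme of axon degeneration, in every cell type rather than in bone alone, on the same background, and WT mice were littermates or were bought from the supplier of that strain. RNA was taken from the femur and tibia of 1 hind limb after the marrow had been spun out, so the libraries could hold residual marrow cells as well as bone. Since the tissue was not sorted, fewer macrophages and less RNA per macrophage cannot be told apart.

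Erythroblastic islands are marrow niches in which a central macrophage holds maturing erythroblasts, feeds them iron, and engulfs the nuclei they expel. VCAM1 on the macrophage binds integrin α4β1 on erythroblasts, the sialic acid receptor SIGLEC1 (CD169) marks these cells, and MERTK takes up expelled nuclei and dying cells. CD163 is the scavenger receptor for haptoglobin-bound hemoglobin, MRC1 (CD206) is the mannose receptor, and C1qa, C1qb, and C1qc encode the chains of C1q, the recognition protein of the classical complement pathway. ADGRE1 is the F4/80 antigen, and SPI-C is an ETS-family transcription factor needed for macrophages that recycle iron from red cells. None of these genes is fully private to macrophages: stromal and endothelial cells also make VCAM1, eosinophils carry F4/80, and sinusoidal endothelium makes MRC1.

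The C1q genes lie side by side on GRCm38.p6, with C1qb at chr4:136880126-136886200, C1qc at chr4:136889801-136892936, and C1qa at chr4:136895916-136898844. Gaps of 3600 and 2979 bp separate neighbours, and the trio spans 18719 bp. Vcam1 is at chr3:116110020-116129688, Spic at chr10:88675269-88683023, and Siglec1, Mertk, and Mrc1 are on chromosome 2. Mrc1 overlaps Mir511, Cd163 (chr6) overlaps Gm52877, and Adgre1 (chr17:57358581-57483529) overlaps Gm18069 and Gm20243, so reads there may be shared. Whether counting used the strand is not given in the sources used here.

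Promoter windows of 250 bases before to 50 bases after the start were held by the RefSeq table (GRCm38.p6) for 6 of the 10 genes, namely Mrc1, Mertk, C1qb, C1qc, Cd163, and Spic. C1qa, Vcam1, Siglec1, and Adgre1 had no entry. The windows of C1qb and C1qc and of Mrc1 and Spic are shown, and these pairs varied together across mice, as given further on. Cd163 also varied with Mrc1 and Spic (r = 0.63 with each), and its window is not shown. Both strands were searched for AGGAAGT, the core bound by ETS factors such as PU.1 and SPI-C, and for TGANNNNGC, the core of the antioxidant response element. Capitals mark the matches, which did not overlap each other, and each window reads 5′ to 3′ on the strand of its gene.
C1qb (chr4:136886151-136886450, minus strand): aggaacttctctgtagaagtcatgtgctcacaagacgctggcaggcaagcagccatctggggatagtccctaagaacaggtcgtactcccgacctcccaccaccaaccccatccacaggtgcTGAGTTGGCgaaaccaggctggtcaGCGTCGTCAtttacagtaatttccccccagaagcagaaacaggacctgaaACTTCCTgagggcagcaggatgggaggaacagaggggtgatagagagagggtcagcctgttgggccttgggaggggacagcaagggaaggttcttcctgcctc
C1qc (chr4:136892865-136893164, minus strand): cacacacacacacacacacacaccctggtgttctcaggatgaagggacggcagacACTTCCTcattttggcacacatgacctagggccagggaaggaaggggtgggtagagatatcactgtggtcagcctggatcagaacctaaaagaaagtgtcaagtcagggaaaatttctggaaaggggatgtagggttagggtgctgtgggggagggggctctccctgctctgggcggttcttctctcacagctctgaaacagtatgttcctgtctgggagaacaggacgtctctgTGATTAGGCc
Mrc1 (chr2:14229164-14229463, plus strand): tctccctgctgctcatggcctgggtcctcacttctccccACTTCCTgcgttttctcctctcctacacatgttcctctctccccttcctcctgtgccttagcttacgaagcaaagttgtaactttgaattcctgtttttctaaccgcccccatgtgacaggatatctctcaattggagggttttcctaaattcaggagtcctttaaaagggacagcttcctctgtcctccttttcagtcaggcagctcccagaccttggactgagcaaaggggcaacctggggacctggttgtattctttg
Spic (chr10:88682974-88683273, minus strand): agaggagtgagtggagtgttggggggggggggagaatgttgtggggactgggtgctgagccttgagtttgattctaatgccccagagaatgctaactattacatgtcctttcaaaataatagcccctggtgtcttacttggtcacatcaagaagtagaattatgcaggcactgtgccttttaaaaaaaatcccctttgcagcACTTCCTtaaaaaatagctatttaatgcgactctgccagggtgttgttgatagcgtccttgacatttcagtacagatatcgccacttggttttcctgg
The ETS core was present in 4 of the 6 windows, all on the strand opposite to the gene, beginning at -211 in Mrc1, -53 in C1qb, -195 in C1qc, and -48 in Spic relative to the start. Among 32851 promoter windows of the same length, 9.35% held it. The antioxidant core was present in 2 of the 6, with matches at -128 and -103 in C1qb and at +41 in C1qc, and in 41.3% of all windows. The 4 windows shown are those that held the ETS core, and the windows of Mertk and Cd163 held neither core. These are matches of letters, and binding was not measured.

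Levels of different genes were compared as TPM, which accounts for length. In WT Control bone C1qb was the most abundant at 345 ± 42.3 TPM (SD, n = 5), followed by C1qc at 293 ± 25.8, C1qa at 194 ± 19.6, and Vcam1 at 123 ± 10.8 TPM. The remaining genes were far lower, from Mrc1 at 28.7 ± 5.41 and Adgre1 at 23.4 ± 3.77 through Spic at 20.03 ± 1.48, Siglec1 at 15.8 ± 2.63, and Mertk at 12.4 ± 2.14 to Cd163 at 7.02 ± 1.63 TPM. Ranges over mice were apart between C1qc and C1qa, C1qa and Vcam1, Vcam1 and Mrc1, and Mertk and Cd163, whereas the other neighbours in this order overlapped. KO Control and KO T1D bone had the same order of mean levels. In WT T1D bone the means of Spic (15.8 ± 2.99 TPM) and Adgre1 (15.5 ± 4.42 TPM) changed places with overlapping ranges. There the ranges of C1qa (94.7 to 164 TPM) and Vcam1 (116 to 139 TPM) overlapped, as did those of C1qc and C1qa. The ranges of Mertk and Cd163 overlapped in WT T1D and in KO T1D bone.

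**Figure D1:**
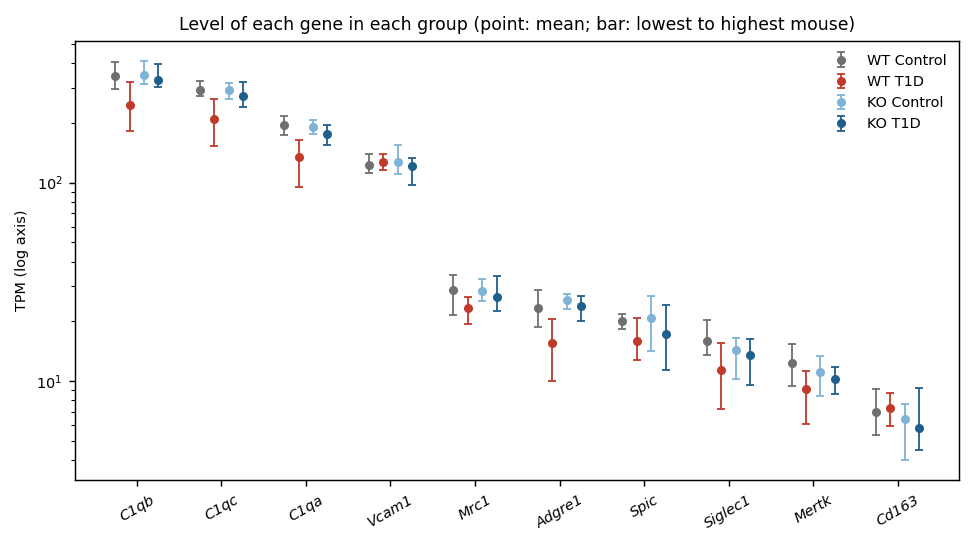
TPM of the 10 genes on a log axis in WT Control, WT T1D, KO Control, and KO T1D bone. Points are means and bars run from the lowest to the highest mouse. The C1q genes and Vcam1 sit at 94.7 TPM or above in every mouse, and the other 6 genes at 34.3 TPM or below.

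Sarm1 was measured first as a check of the labels. Levels are given as CPM, counts scaled to a common library total with TMM. Sarm1 was low everywhere, with 5 to 32 counts per mouse and means of 1.17 ± 0.403 and 0.687 ± 0.293 CPM in the WT Control and WT T1D groups and of 0.799 ± 0.503 and 1.19 ± 0.259 CPM in the KO Control and KO T1D groups, so Sarm1 RNA was not uniformly lower in the libraries labelled KO. The knockout was not visible here as a loss of Sarm1 RNA, for a reason that was not tested, and KO is used as the label. The paper reports that Sarm1 was low in bone by qPCR, yet significantly lower in knockout than in WT bone. Bone was present by its main collagen Col1a1, named here as a check of the tissue, at 48456 ± 11271 CPM in WT Control and 27360 to 58304 CPM in all KO mice. WT T1D mice A3905 and A3906 stood apart, with Col1a1 at 3018 and 2215 CPM against 31115 to 43914 CPM in the other WT T1D mice. Hemoglobin transcripts took 21.4% and 21.0% of their counts, against 8.01% to 16.02% in the other 21 mice. The differences with T1D in WT and between genotypes in T1D are given further on without these libraries as well.

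None of the 10 genes passed an adjusted p of 0.05 (edgeR quasi-likelihood test, Benjamini-Hochberg over 14364 genes) in any of the 6 comparisons. With T1D in WT mice 0 of 10 passed, where 2.33% of all genes did, and 6 of 10 had an unadjusted p under 0.05, where 22.2% of all genes did. With T1D in KO mice 0 of 10 passed either threshold, against 0% of all genes adjusted and 3.15% unadjusted. For the interaction, which compares the T1D difference between genotypes, 0 of 10 passed against 0% of all genes, and 1 of 10 had an unadjusted p under 0.05 against 10.2%. Averaged over genotypes, 0 of 10 passed against 0.111%, and 5 of 10 were under 0.05 unadjusted against 16.4%. The genotypes were compared in the same way, with 0 of 10 passing in Control mice against 0.0278%, and 0 of 10 against 4.8% unadjusted. In T1D mice 0 of 10 passed against 0.0905%, and 6 of 10 were under 0.05 unadjusted against 17.1%. The comparisons within WT and between genotypes in T1D use the same WT T1D mice, so their values are not independent.

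The T1D estimates in WT mice ran from a log2 fold change of -0.32 for Adgre1 to 0.36 for Cd163, with 8 of 10 below 0 and a median of -0.21, where the median of all genes was -0.01. In KO mice 10 of 10 were below 0 but closer to it, from -0.24 for Spic to -0.02 for Vcam1, with a median of -0.06. Summed over the 10 genes, the level was 1132 ± 49.1 CPM in WT Control mice, 1106 ± 55.8 in WT T1D mice, 1167 ± 87.9 in KO Control mice, and 1129 ± 73.8 in KO T1D mice. The sums overlapped between groups, while in WT T1D bone the genes did not all lie on the same side of the WT Control means.

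**Figure D2:**
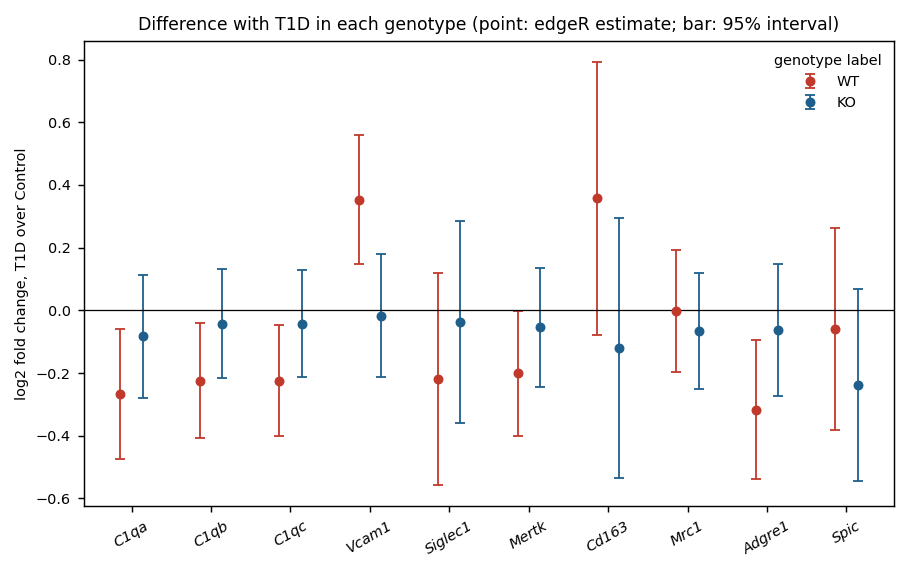
Log2 fold change of each gene with T1D, in WT mice and in KO mice. Points are edgeR estimates and bars are 95% intervals. In WT mice the intervals of C1qa, C1qb, C1qc, Mertk, and Adgre1 lie below 0 and that of Vcam1 above 0 before any adjustment, and in KO mice all 10 intervals include 0.

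C1q, the soluble sensor that tags dying cells and immune complexes, had lower mean counts for all of its chains in WT T1D bone. C1qa was at 137, 124, 112, 151, and 145 CPM in the WT Control mice and had a lowest, median, and highest value of 89.6, 113, and 137 CPM in WT T1D. In KO Control bone C1qa had a lowest, median, and highest value of 119, 134, and 157 CPM, and in KO T1D bone of 114, 127, and 143 CPM. The WT groups overlapped, with 3 of 6 WT T1D mice below every WT Control mouse and 5 of 6 below the WT Control mean.

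The log2 fold change of C1qa in WT mice was -0.27 (SE 0.10, 16.9% lower, edgeR adjusted p = 0.12). C1qb was at 219.8, 214, 206, 254, and 270.4 CPM in WT Control and at 168, 203, and 227 CPM (lowest, median, highest) in WT T1D, a log2 fold change of -0.22 (SE 0.09, edgeR adjusted p = 0.139). C1qc was at 199.6, 177, 174, 220.0, and 211 CPM in WT Control and at 141, 169, and 185 CPM in WT T1D, also -0.22 (SE 0.09, edgeR adjusted p = 0.128). Every WT T1D mouse lay below the WT Control mean for C1qb and C1qc, and 4 of 6 lay below the lowest WT Control mouse.

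With T1D in KO mice the estimates were -0.08 for C1qa (95% interval -0.28 to 0.11), -0.04 for C1qb (-0.22 to 0.13), and -0.04 for C1qc (-0.21 to 0.13). The difference between genotypes in the T1D estimate was 0.18 for each chain, with intervals of -0.10 to 0.47, -0.07 to 0.43, and -0.06 to 0.43 and edgeR adjusted p of 0.631, 0.594, and 0.585. Compared with WT T1D, KO T1D bone had higher estimates by 0.20 for C1qa, 0.24 for C1qb, and 0.21 for C1qc (edgeR adjusted p = 0.285, 0.187, and 0.214). In Control mice the genotypes differed by 0.02, 0.06, and 0.03, with the widest interval from -0.19 to 0.22 for C1qa. The proportions of the chains were similar in the 4 groups. C1qa stood at 57.5 ± 3.58, 55.7 ± 5.23, 55.9 ± 2.90, and 54.6 ± 6.44 counts per 100 C1qb counts in WT Control, WT T1D, KO Control, and KO T1D. C1qc stood at 84.4 ± 4.80, 84.3 ± 3.03, 82.6 ± 3.35, and 82.5 ± 5.57 counts per 100 C1qb counts in the same order.

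Vcam1, the adhesion molecule of the island, lay on the other side. It was at 278, 278, 296, 279.7, and 257 CPM in WT Control and at 292, 340.0, and 423 CPM (lowest, median, highest) in WT T1D. Of the 6 WT T1D mice, 5 were above every WT Control mouse and the sixth, at 292 CPM, was within their range. The WT Control group was tight, with an SD of 4.9% of its mean against 14.2% in WT T1D. The log2 fold change of Vcam1 in WT mice was 0.35 (SE 0.10, 27.7% higher, edgeR adjusted p = 0.0545), just outside the threshold.

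In KO bone Vcam1 had a lowest, median, and highest value of 250.2, 289.9, and 349 CPM in Control and of 247, 291, and 327 CPM in T1D. These groups overlapped almost fully, and the log2 fold change was -0.02 (95% interval -0.21 to 0.18). Vcam1 had the lowest adjusted p for the interaction of the 10 genes, with a difference between genotypes of -0.37 (95% interval -0.65 to -0.09, edgeR adjusted p = 0.479). KO T1D bone differed from WT T1D bone by -0.28 (SE 0.09, edgeR adjusted p = 0.181), and all 6 KO T1D mice lay below the WT T1D mean. In Control mice the genotypes differed by 0.09 (95% interval -0.12 to 0.29).

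Vcam1 is also made by stromal cells, so the stromal list (Cxcl12, Lepr, Kitl, and others) was read beside it. None of its 8 tested genes passed with T1D in WT mice, 4 of 8 estimates were above 0, and the median log2 fold change was -0.05. At an unadjusted p under 0.05, 2 of 8 had lower and 0 of 8 higher values, where 22.2% of all genes were under it. The summed level ran from 1655 to 1856 CPM in WT Control and from 1676 to 2173 CPM in WT T1D, with means of 1738 and 1901 CPM, and most of it was Cxcl12. Cxcl12, the main chemokine of marrow stroma and chosen after its values were seen, averaged 1375 ± 75.7 CPM in WT Control and 1563 ± 224 CPM in WT T1D, and its 2 highest WT values, 1827 and 1863 CPM, were those of A3905 and A3906. The part of stromal cells in the Vcam1 values was not tested.

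Siglec1, the sialoadhesin of island macrophages, was at 63.3, 60.7, 59.7, 66.7, and 85.7 CPM in WT Control and at 44.2, 55.3, and 81.9 CPM (lowest, median, highest) in WT T1D. Its SD was 25.2% of the mean in WT T1D, and the groups overlapped. The log2 fold change was -0.22 in WT (95% interval -0.56 to 0.12, edgeR adjusted p = 0.446) and -0.04 in KO (-0.36 to 0.29), where the levels ran from 43.3 to 72.7 CPM in Control and from 43.6 to 73.9 CPM in T1D. Siglec1 differed between genotypes by -0.10 in Control and 0.08 in T1D, with both intervals including 0.

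**Figure D3:**
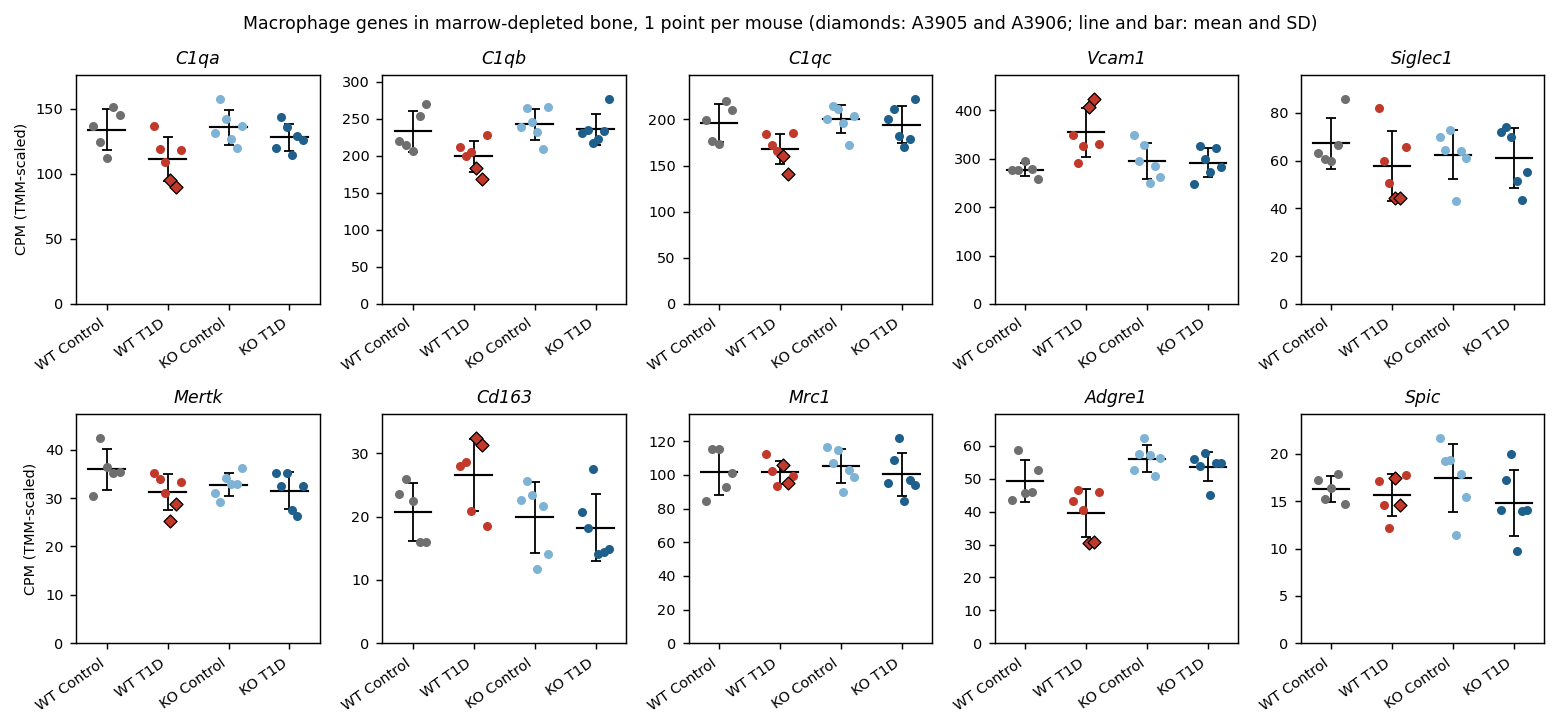
CPM of the 10 genes, 1 point per mouse, in WT Control (n = 5), WT T1D, KO Control, and KO T1D (n = 6 each). Lines and bars are means and SD, axes start at 0, and diamonds mark the WT T1D mice A3905 and A3906. These diamonds are the lowest points for C1qa, C1qb, C1qc, and Adgre1 and the highest for Vcam1 and Cd163.

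Of the receptors for uptake, Mertk, which binds phosphatidylserine through bridging proteins, was at 30.3, 42.3, 36.4, 35.1, and 35.4 CPM in WT Control and at 25.3, 32.2, and 35.2 CPM (lowest, median, highest) in WT T1D. All 6 WT T1D mice lay below the WT Control mean, although only 2 lay below its lowest mouse, and the log2 fold change was -0.20 (SE 0.10, edgeR adjusted p = 0.222). In KO mice Mertk averaged 32.7 ± 2.39 CPM in Control and 31.5 ± 3.81 CPM in T1D, a log2 fold change of -0.05 (95% interval -0.25 to 0.14). Its difference between genotypes in the T1D estimate was 0.15 (-0.13 to 0.42).

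Cd163, the hemoglobin scavenger receptor, was at 23.6, 25.9, 22.4, 15.95, and 15.98 CPM in WT Control. In WT T1D it had a lowest, median, and highest value of 18.6, 28.3, and 32.4 CPM, with 4 of 6 mice above every WT Control mouse. The log2 fold change of 0.36 was as large as that of Vcam1 but came with a wide error (SE 0.21, 95% interval -0.08 to 0.79, edgeR adjusted p = 0.323). In KO mice Cd163 averaged 19.9 ± 5.59 CPM in Control and 18.3 ± 5.24 CPM in T1D, a log2 fold change of -0.12 (-0.54 to 0.29). KO T1D bone differed from WT T1D bone by -0.54 (SE 0.20, 31.3% lower, edgeR adjusted p = 0.203), the largest genotype difference in size among the 10 genes, and the interaction estimate was -0.48 (-1.08 to 0.12). With 205 to 572 counts per mouse, Cd163 and Spic (180 to 408 counts) were the least deeply counted of the 10 genes.

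Mrc1, the mannose receptor, had the smallest T1D estimate of the 10 genes in WT mice. Mean levels were 102 ± 13.7 and 102 ± 6.97 CPM in WT Control and WT T1D mice and 105 ± 10.1 and 100.3 ± 12.96 CPM in KO Control and KO T1D mice. The T1D log2 fold change was 0.00 in WT (95% interval -0.20 to 0.19, edgeR adjusted p = 0.996) and -0.07 in KO (-0.25 to 0.12), and the genotypes differed by 0.05 in Control and by -0.02 in T1D.

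Adgre1, the F4/80 antigen used to mark mouse macrophages, was at 43.5, 58.7, 45.6, 46.0, and 52.7 CPM in WT Control and at 30.6, 42.0, and 46.5 CPM (lowest, median, highest) in WT T1D. All 6 WT T1D mice lay below the WT Control mean and 4 of 6 lay below its lowest mouse. The log2 fold change was -0.32 (SE 0.11, 19.7% lower, edgeR adjusted p = 0.0909). In KO bone Adgre1 had a lowest, median, and highest value of 50.7, 56.7, and 62.2 CPM in Control and of 44.9, 54.8, and 57.8 CPM in T1D, with a log2 fold change of -0.06 (95% interval -0.27 to 0.15). Its interaction estimate was 0.25 (-0.05 to 0.56, edgeR adjusted p = 0.543).

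Between genotypes in T1D mice Adgre1 gave the lowest adjusted p of the 10 genes, with a log2 fold change of 0.44 in KO T1D over WT T1D (SE 0.10, 35.5% higher, edgeR adjusted p = 0.075). All 6 KO T1D mice lay above the WT T1D mean and 5 of 6 lay above the highest WT T1D mouse. In Control mice KO was higher by 0.18 (95% interval -0.04 to 0.41, adjusted p = 0.999), with 6 of 6 KO mice above the WT mean. Of 8 eosinophil genes, 0 passed between genotypes in Control and 1 passed in T1D, Ear1, a ribonuclease of eosinophil granules, chosen after its values were seen, at 1.27 in KO over WT (edgeR adjusted p = 0.0489). At an unadjusted p under 0.05, 7 of 8 had higher values in KO in Control, where 4.8% of all genes were under it in either direction, and 7 of 8 in T1D, where 17.1% were. The median log2 fold change of the 8 was 0.69 in Control and 0.96 in T1D, and without A3905 and A3906 none passed in T1D and the median was 0.96. Their summed level ran from 1199 to 2363 CPM in WT Control and 1254 to 2125 CPM in WT T1D mice, against 1725 to 4975 CPM in KO Control and 2086 to 4747 CPM in KO T1D mice, and none of the 8 was at 0 counts in any mouse. The part of eosinophils in the Adgre1 values was not tested.

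Spic, the transcription factor of iron-recycling macrophages, was at 17.3, 15.2, 16.4, 17.9, and 14.7 CPM in WT Control and at 12.2, 15.9, and 17.8 CPM (lowest, median, highest) in WT T1D. These groups overlapped, and the log2 fold change was -0.06 (95% interval -0.38 to 0.26, edgeR adjusted p = 0.864). KO mice spread more widely, from 11.4 to 21.6 CPM in Control and from 9.70 to 20.02 CPM in T1D, with a log2 fold change of -0.24 (-0.54 to 0.07). It was the lowest of the 10 T1D estimates in KO mice, and the difference from the WT estimate was -0.18 (-0.62 to 0.27).

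Libraries A3905 and A3906 weighed on the WT comparison. Among all 23 mice they held the 2 lowest values of C1qa (95.4 and 89.6 CPM), C1qb (183 and 168 CPM), C1qc (160.5 and 141 CPM), and Adgre1 (30.6 and 30.9 CPM), and the 2 highest of Vcam1 (406 and 423 CPM) and Cd163 (32.4 and 31.3 CPM). For Mertk A3905 and A3906 ranked 1 and 4 from the lowest, and for Siglec1 3 and 4. For Mrc1 they ranked 15 and 7 from the lowest, and for Spic 16 and 7. Without them the WT log2 fold changes were -0.15 for C1qa, -0.14 for C1qb, -0.16 for C1qc, -0.17 for Adgre1, 0.22 for Vcam1, and 0.21 for Cd163, each with the same sign and a smaller size. Those of Siglec1 and Mertk were -0.06 and -0.11, and those of Mrc1 and Spic were 0.00 and -0.08. At an unadjusted p under 0.05, 1 of 10 genes was left, where 11% of all genes were under it, and 0 of 14364 genes passed adjustment in WT. Between genotypes in T1D, the log2 fold changes were then 0.08, 0.16, and 0.14 for C1qa, C1qb, and C1qc, 0.28 for Adgre1, -0.15 for Vcam1, and -0.39 for Cd163. The interaction estimates were 0.07, 0.10, and 0.11 for the C1q chains, 0.10 for Adgre1, -0.24 for Vcam1, and -0.33 for Cd163.

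Since total scaling cancels in a ratio of genes from the same library, Vcam1 was also read against C1q. Vcam1 gave 49.9, 53.9, 60.2, 44.8, and 41.1 counts per 100 C1q counts in the WT Control mice. In WT T1D the values were 59.6, 68.0, 65.7, 92.5, 106, and 62.3, with A3905 at 92.5 and A3906 at 106. KO Control averaged 51.3 ± 7.3 and KO T1D 52.5 ± 5.9, close to the WT Control mean of 49.98 ± 7.5. The WT T1D mice outside A3905 and A3906 lay at the top of the Control range or above it. For Cd163 against Adgre1 the group means were 42.5 ± 9.9, 70.9 ± 26.8, 35.6 ± 10.3, and 33.8 ± 7.9 counts per 100 Adgre1 counts in WT Control, WT T1D, KO Control, and KO T1D. Here the WT T1D mean rested on A3905 and A3906, at 106 and 102, while the other 4 mice ran from 40.5 to 64.7. No test was made of these ratios.

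**Figure D4:**
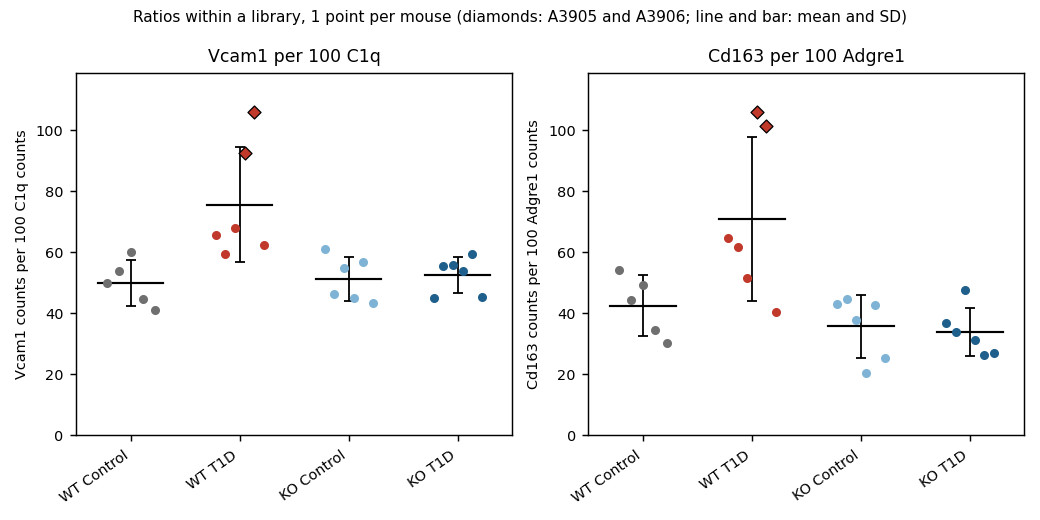
Vcam1 counts per 100 summed C1q counts and Cd163 counts per 100 Adgre1 counts, 1 point per mouse, with group means and SD. Diamonds mark A3905 and A3906, which are the highest points in both panels, at 92.5 and 106 for Vcam1.

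The scale of the values mattered for the size of the differences and for which genes passed. TPM of all genes had a median log2 difference of -0.24 with T1D in WT (limma on log2 (TPM + 1)), alongside the larger hemoglobin share, whereas TMM-scaled counts had a median of -0.01. On that TPM scale 6 of 10 genes passed with lower values, where 35.9% of all genes passed: C1qa, C1qb, C1qc, Siglec1, Mertk, and Adgre1. Their TPM differences were -0.56, -0.51, -0.51, -0.49, -0.42, and -0.59 in that order. For Vcam1 and Cd163 the TPM differences were close to 0, at 0.05 (limma adjusted p = 0.66) and 0.06 (limma adjusted p = 0.797), against 0.35 and 0.36 on counts. All 10 signs were the same on TPM and on counts. Relative to the median of all genes, the TPM differences of the 6 were -0.31, -0.27, -0.27, -0.25, -0.18, and -0.35, that of Vcam1 was 0.29, and that of Cd163 was 0.30. DESeq2 on the counts called 1 of 10, Vcam1 at an adjusted p of 0.0165, where it called 6.98% of genes.

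Mice with identifiers beginning A17 were found in WT only, 1 in Control and 3 in T1D. Within the A36 to A39 mice, 3 of 10 genes passed in edgeR (C1qa at -0.39, Vcam1 at 0.49, and Adgre1 at -0.49), where 15.4% of all genes did. That subset gives A3905 and A3906 more weight, as 2 of its 3 WT T1D mice. For KO T1D over WT T1D, 2 of 10 genes passed in it (Vcam1 at -0.42 and Adgre1 at 0.58), against 10.7% of all genes. In the same comparison DESeq2 called Adgre1 (adjusted p = 0.0121), against 1.66%, and TPM called C1qa, C1qb, C1qc, and Adgre1, against 8.12%. Leaving out WT T1D mouse A1764 or A3909 brought Vcam1 and Adgre1 past the threshold in WT, with log2 fold changes of 0.40 and -0.37 without A1764, where 6.53% of all genes passed, and of 0.37 and -0.36 without A3909, where 8.8% did. Leaving out KO Control mouse A3766 brought Vcam1 past it, at 0.35, where 4.02% of all genes passed.

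Variation between mice of the same group showed which genes varied together apart from treatment. After group means were removed, log2 CPM values correlated over the 23 mice at r = 0.86 for C1qb and C1qc, 0.79 for C1qa and C1qc, and 0.70 for C1qa and C1qb, the neighbours on chromosome 4. Adgre1 went with Mertk (r = 0.72). Mrc1, Spic, and Cd163 formed another group, with r of 0.67 for Mrc1 and Spic, 0.63 for Cd163 and Spic, and 0.63 for Cd163 and Mrc1, and Vcam1 was nearest to Spic (0.54). Siglec1 varied with genes of each group, at 0.65 with C1qa, 0.53 with Mertk, and 0.54 with Spic, so the groups were not sharply apart. Between the groups, Siglec1 aside, r ran from 0.59 for C1qa and Adgre1 to -0.50 for C1qb and Cd163. It was -0.46 for Vcam1 and Adgre1. The points share libraries, depth, and scaling, and A3905 and A3906 are among them, so these are descriptions.

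**Figure D5:**
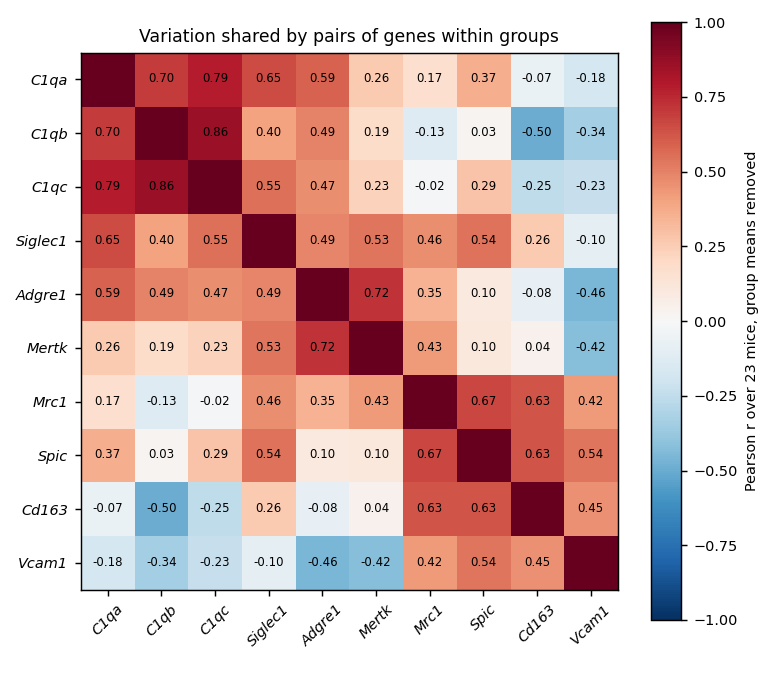
Pearson r between pairs of genes over 23 mice after subtraction of group means from log2 (CPM + 0.5). Red is positive and blue negative. The C1q chains form a block from 0.70 to 0.86, and Mrc1, Spic, and Cd163 form a block from 0.63 to 0.67.

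Genes outside the 10 were ranked by the likeness of their within-group variation to the mean z score of the 10. The closest were Clba1 (r = 0.90, at a mean of 1.61 CPM), Slc40a1 (0.85), Rspo3 (0.82), Esm1 (0.82), Axl (0.80), Fbln5 (0.79), 2310022B05Rik (0.78), and Galk1 (0.78), over 23 mice and 14364 genes. Of these, only Slc40a1, which encodes ferroportin, the iron exporter, and Axl, which encodes a receptor related to MERTK, were on the gene lists read below. Within the 10, Siglec1 was closest to the mean (0.84) and Vcam1 the farthest from it (0.15). Each of the 10 is part of that mean, which raises its r, so these values cannot be compared with those of genes outside.

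Genes that act with the 10 were read from further lists. Of all genes, 2.33% passed with T1D in WT mice and 0% in KO mice. For heme and iron recycling, 0 of 9 tested genes passed with T1D in WT, 8 of 9 estimates were above 0, and the median log2 fold change was 0.19 against -0.01 for all genes. The 3 largest were Blvrb, biliverdin reductase B (0.51, edgeR adjusted p = 0.0547), Cd5l, a secreted macrophage protein (0.50, adjusted p = 0.106), and the heme transporter Slc48a1 (0.30, adjusted p = 0.0591). The WT median was 0.14 without A3905 and A3906. In KO mice 0 of 9 passed and the median was 0.01.

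Among 14 efferocytosis genes 1 passed with a higher and 2 with lower values in WT, where 2.33% of all genes passed. Cd36, a scavenger receptor for lipids and dying cells, rose by a log2 fold change of 0.93 (SE 0.18, edgeR adjusted p = 0.0251). The scavenger receptor Stab1 fell by 0.70 on the log2 scale (SE 0.14, adjusted p = 0.0294) and the cholesterol exporter Abca1 fell by 0.56 (SE 0.14, adjusted p = 0.0451). Stab1 and Abca1 were chosen after their values were seen. Tyro3, related to MERTK, had an estimate of -0.99 (adjusted p = 0.161) and the phosphatidylserine receptor Havcr1 one of -0.92 (adjusted p = 0.137), both at under 3 CPM. Without A3905 and A3906 none of the 14 passed in WT, and Cd36 was at 0.57 (edgeR adjusted p = 0.131), Stab1 at -0.56 (0.131), and Abca1 at -0.39 (0.293). In KO mice 0 of 14 passed, and the estimates were -0.04 for Cd36, -0.10 for Stab1, and -0.33 for Abca1. The genotype difference in the T1D estimate was -0.97 for Cd36 (edgeR adjusted p = 0.479) and 0.60 for Stab1 (adjusted p = 0.479). The tissue was not sorted, so the cells that made these RNAs were not identified. For 8 endothelial genes the median with T1D in WT was -0.21, with 6 of 8 below 0, and -0.10 without A3905 and A3906. The part of endothelial cells in these values was not tested.

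Of 8 genes listed as partners in the island, not all of them private to erythroid cells, 1 passed in WT, where 2.33% of all genes did. Epor, the erythropoietin receptor, rose by 0.48 (SE 0.12, edgeR adjusted p = 0.0451), and Icam4 had an estimate of 0.39 (adjusted p = 0.211) and Spn, a leukocyte sialophorin, one of 0.31 (adjusted p = 0.0559). Without A3905 and A3906 none of the 8 passed, and Epor was at 0.38 (edgeR adjusted p = 0.307). In KO mice 0 of 8 passed, with Epor at 0.11. Of 13 erythroid markers, 6 passed with higher values in WT T1D, where 2.33% of all genes passed. All 13 estimates were above 0, and the median was 0.64. With A3905 and A3906 left out none of the 13 passed, 9 of 13 were under 0.05 unadjusted against 11% of all genes, 13 of 13 estimates were above 0, and the median was 0.41. Their summed level ran from 98593 to 144260 CPM in WT Control and from 127320 to 239270 CPM in WT T1D, and none of the 13 was at 0 in any mouse. With T1D in KO mice 0 of 13 passed, and the median was 0.03. Of 10 osteoblast and osteocyte markers, Runx2 (-0.66) and Ibsp (-0.78), chosen after their values were seen, passed with lower values in WT T1D, and the summed level was 40225 to 78124 CPM in WT Control and 3339 to 57052 CPM in WT T1D. None of the 10 passed without A3905 and A3906, with Runx2 at -0.42 (edgeR adjusted p = 0.288) and Ibsp at -0.62 (0.143). With T1D in KO mice 0 of 10 passed, and the median was 0.05. The part of these cell mixtures in the values of the macrophage genes was not tested.

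Other macrophage genes gave 1 of 14 higher and 1 of 14 lower in WT, where 2.33% of all genes passed. Clec10a, a lectin of alternatively activated macrophages, fell by 0.65 on the log2 scale (SE 0.17, edgeR adjusted p = 0.0459). Vsig4, a complement receptor of tissue macrophages chosen after its values were seen, rose by 1.39 (SE 0.36, adjusted p = 0.0471) at a mean of 0.911 CPM. Ms4a7 (-0.58, adjusted p = 0.0591) and Aif1 (-0.55, adjusted p = 0.0624) had the next largest estimates. Without A3905 and A3906 none of the 14 passed in WT, with Clec10a at -0.50 (edgeR adjusted p = 0.311) and Vsig4 at 0.97 (0.347). The median over the 14 was -0.09 in WT and -0.09 in KO, where 0 passed.

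Regulators of macrophage fate gave 0 of 10 in WT, with Nr1h3 (LXRα) at -0.31 (adjusted p = 0.214), Maf at -0.29 (adjusted p = 0.138), and Spi1 (PU.1) at 0.27 (adjusted p = 0.261). Classical complement partners gave 0 of 8, with C3ar1 at -0.71 (adjusted p = 0.138), C2 at -0.60 (adjusted p = 0.122), and C5ar1 at 0.31 (adjusted p = 0.287). In KO mice 0 passed in either list, with medians of -0.02 and -0.05.

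The calls among these partners depended on the full set of mice. In 23 fits that each left out 1 mouse, Cd36 and Stab1 passed in 18, Epor in 9, Abca1 in 8, Vsig4 in 7, and Clec10a in 6. No gene of 14364 passed in WT without Control mouse A3767, without Control mouse A3907, or without both A3905 and A3906. On log2 (TPM + 1), Epor did not pass (0.19, limma adjusted p = 0.0825), and Cd36, Stab1, Abca1, Vsig4, and Clec10a did, where 35.9% of all genes passed. Among genes not called by edgeR, Blvrb was at 0.22, Cd5l at 0.18, Slc48a1 at 0.005, and Spn at 0.03 on this scale. Of the lists for other cells, 1 of 8 monocyte genes passed with T1D in WT by edgeR, where 2.33% of all genes did. It was Ace, at 0.46, chosen after its values were seen. Passing counts were 0 of 8 eosinophil, 0 of 10 neutrophil, 0 of 8 osteoclast, 0 of 8 endothelial, 0 of 7 dendritic, 0 of 6 B cell, and 0 of 6 skeletal muscle genes.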

How the data were processed

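RNA-Seq libraries of marrow-depleted femur and tibia from 23 mice were grouped by the deposited labels, 1 mouse per library. The authors deposited RSEM counts (67228 entries) in whole numbers, after rounding and without normalization, and TPM values as the sequencing provider gave them (17644 genes). Per the paper's methods and the submitters' processing notes, reads of a dUTP-stranded oligo dT library were filtered with SOAPnuke and mapped with HISAT and Bowtie2 to GRCm38.p6, and versions are not given in the sources used here. Total counts ranged from 16938101 to 20135592. Within groups, the 55 pairs of libraries gave a chi-square per gene between 10.9 and 187, so no library was a duplicate. Nothing in the labels says that mice came from separate litters or cages, so p values measure the spread between these mice.

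The 14364 genes that reached 10 counts in 5 or more mice were scaled by TMM and fitted with 4 group means in edgeR 4.0.16 (quasi-likelihood test, R 4.3.3), and p values were adjusted over all of them by Benjamini-Hochberg. Intervals are 95% intervals of the fit, unadjusted. Alternatives were RLE scaling, removal of hemoglobin genes, DESeq2 1.42.0, no filter, limma 3.58.1 on log2 (TPM + 1) and log2 (TPM + 0.1), A36 to A39 mice alone, removal of A3905 and A3906, and removal of each mouse. The procedure was tested on simulated data. Python 3.11.15 (pandas 2.3.3, matplotlib 3.10.9, numpy 2.4.6) made the other tables and figures. Positions and promoters came from RefSeq for GRCm38.p6.

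The 10 genes and all lists were chosen with earlier results of these data known. Named besides the 10 were Sarm1, the 3 genes of each partner list that had the largest T1D change in WT at a mean of 1 CPM or more, and the 8 genes most like the mean z score of the 10. Col1a1 was a check of the tissue, and any further gene is marked as chosen after its values were seen. List genes that did not pass the filter were Hpx, C1s2, Ahsp, and Ighm. Each column of values used carried the title of a sample of this series. Protein sequences were not used here.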

Additional observations from a re-analysis of the deposited data

Results flagged for a closer look

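Of 56 sets of values checked, 40 of them 1 gene in 1 group and the rest ratios of genes, 3 had a mouse far from the rest of its group by Dixon's criterion, about the number that chance gives at 1 in 20. C1qb in KO T1D mouse A3683 was at 276.4 CPM, above the other 5 mice of its group, which ran from 217 to 234 CPM. Siglec1 in WT Control mouse A3907 was at 85.74 CPM, above the other 4 at 59.7 to 66.7 CPM. Adgre1 in KO T1D mouse A3681 was at 44.94 CPM, below the other 5 at 53.8 to 57.8 CPM. No gene had every T1D mouse on one side of its Control mean in WT and every T1D mouse on the opposite side in KO.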

How the results depend on the processing

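No paired analysis was possible because mouse identifiers were not shared between groups. The count of the 10 genes that passed with T1D in WT was 0 by edgeR, 0 with RLE size factors, without hemoglobin genes, without the gene filter, and without both A3905 and A3906, but 1 with DESeq2, 6 on log2 (TPM + 1), 6 on log2 (TPM + 0.1), and 3 in A36 to A39 mice, and 0 to 2 when 1 mouse was left out. Averaged over genotypes the count moved from 0 to 4 on log2 (TPM + 1), where 7.7% of all genes passed, and 4 on log2 (TPM + 0.1), where 6.62% did. For KO over WT in T1D it moved from 0 to 1 with DESeq2, where 1.66% of all genes passed. It was 4 on log2 (TPM + 1), where 8.12% passed, and 4 on log2 (TPM + 0.1), where 8.25% did. In A36 to A39 mice it was 2, where 10.7% passed. When 1 mouse was left out it ran from 0 to 1, reaching 1 without WT T1D mouse A3909, where 0.661% passed. For T1D in KO, the interaction, and KO over WT in Control, no alternative moved the count of 0. Over all 14364 genes, the calls with T1D in WT numbered 334 by edgeR, 1002 by DESeq2, 88 of 18002 without the filter, 2205 in A36 to A39 mice, 5154 and 5173 on the TPM scales, 0 without A3905 and A3906, and 0 to 1264 when 1 mouse was left out. On the TPM scales the median of all genes moved by -0.24 and -0.29 in this comparison. Other causes were not tested.

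Some log2 fold changes of single genes, none of them past the threshold in edgeR, turned direction. Mrc1 with T1D in WT became 0.0036 with RLE, 0.0031 without hemoglobin genes, 0.0036 with DESeq2, 0.00301 without the filter, and 0.0027 without A3905 and A3906. In A36 to A39 mice, Spic with T1D in WT became 0.064 and Mrc1 in KO over WT Control -0.0049. Without A3905 and A3906, KO over WT in T1D became -0.082 for Siglec1 and -0.083 for Mertk. On log2 (TPM + 1) and log2 (TPM + 0.1), the interaction became 0.16 and 0.17 for Mrc1 and 0.060 and 0.064 for Spic, and the T1D average became -0.0029 and -0.0029 for Vcam1 and -0.037 and -0.042 for Cd163. On the same scales KO over WT in Control became -0.019 and -0.019 for C1qa and -0.0086 and -0.0086 for C1qc, and in T1D 0.17 and 0.18 for Mrc1 and 0.10 and 0.10 for Spic. Leaving out 1 mouse turned T1D in WT for Mrc1 (-0.062 to 0.048) and Spic (-0.0995 to 0.0029), and T1D in KO for Siglec1 (-0.12 to 0.043) and Vcam1 (-0.060 to 0.037). It also turned KO over WT in Control for C1qa (-0.041 to 0.066), C1qc (-0.012 to 0.073), Cd163 (-0.15 to 0.051), and Mrc1 (-0.013 to 0.096), and in T1D for Mertk (-0.050 to 0.059), Mrc1 (-0.093 to 0.026), and Spic (-0.19 to 0.022). The other 1761 values of single genes under alternatives kept direction and side of the threshold, and 41 kept direction and passed it.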
